A study of Mus musculus with 144 samples.

Results

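The comparison sets TCDD (a persistent dioxin, in full 2,3,7,8-tetrachlorodibenzo-p-dioxin) against its vehicle in primary mouse hepatocytes labelled wild-type (WT) and harvested at 8 h. It rests on 8 RNA-Seq libraries, which form 2 of the 36 groups of the series, the 4 labelled WT, TCDD and 8 h (libraries 45 to 48 by their titles) and the 4 labelled WT, DMSO and 8 h (libraries 9 to 12). The series compared 10 nM TCDD and DMSO at 9 time points in hepatocytes labelled WT or DRE-null, with 4 libraries in every group, to ask how the response depends on a dioxin response element in *Pkm*. All cells were from male C57BL/6NCrl mice aged 28 days, attached to collagen in serum and then kept in serum-free medium with insulin, transferrin and selenium, ascorbic acid and 100 nM dexamethasone, in both treatment groups. The labels do not say which libraries share an animal, an isolation or a day, so the p-values measure the spread between these libraries, which may be technical, and a day or plate that differed between the treatments cannot be told apart from TCDD.

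TCDD is a ligand of the aryl hydrocarbon receptor (AHR), a transcription factor that waits in the cytosol with HSP90 and p23, moves into the nucleus when it binds a ligand, pairs with ARNT and binds dioxin response elements whose core is GCGTG. In liver the best known targets are the cytochromes P450 of family CYP1, the repressors *Tiparp* and *Ahrr* that limit the receptor, and conjugating and redox enzymes such as *Ugdh* and *Nqo1*. The deposited value of a gene is the number of uniquely mapped read pairs on its exons. Uniquely mapped pairs that fall on no annotated exon, in introns or between genes, are counted apart, and their percentage of all uniquely mapped pairs is called the no-feature share here.

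The 8 libraries held 13588848 to 20471957 pairs on genes. The no-feature share was 5.99%, 4.89%, 5.60% and 4.89% in vehicle libraries 9 to 12, and 21.9%, 8.64%, 8.36% and 10.7% in TCDD libraries 45 to 48. Every TCDD library was above every vehicle library, and the mean was 12.4% ± 6.44 with TCDD and 5.34% ± 0.55 with vehicle (SD, n = 4 each). The difference was 7.07 percentage points, or 3.90 without library 45. In the libraries of the other 34 groups the share ran from 2.88% to 13.9%, and at 8 h in libraries labelled DRE-null it was 4.20% to 6.27% with vehicle and 6.05% to 6.55% with TCDD. Other library measures moved with the treatment too: pairs that hit more than one gene were 4.72% to 6.39% of uniquely mapped pairs with TCDD and 7.02% to 7.59% with vehicle, and 18337 to 20626 genes had a count with TCDD against 15401 to 17203 with vehicle. Library 45 stood apart from the other TCDD libraries, with 23.6% of its pairs unmapped, against 7.32% to 10.4%, and 24.2% of its gene counts on genes not annotated as protein-coding, against 3.42% to 5.54%. Results are therefore given with and without it where it changes them.

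**Figure D1:**
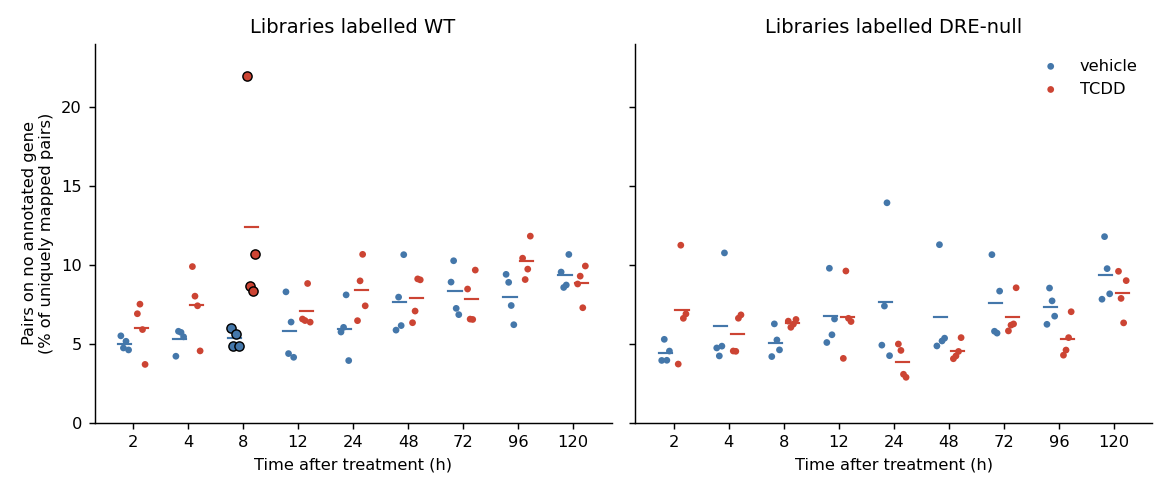
No-feature share (percent of uniquely mapped pairs) of each library of the series against time after treatment (h), for libraries labelled WT (left) and DRE-null (right), with vehicle in blue, TCDD in red and short lines at the group means. The 8 libraries compared here are outlined in black, and their TCDD libraries lie between 8.36% and 21.9%, above the 4.89% to 5.99% of their vehicle libraries.

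Hepatocyte markers were high in all 8 libraries. The 9 markers together, among them albumin and transthyretin, summed to 71817 to 89464 CPM (counts scaled to library size) with vehicle and 64110.4 to 69387 with TCDD, with 1 marker higher and 4 lower by the test described further on. The sum of 11 Kupffer cell and macrophage markers was 341.0 to 553.6 CPM with vehicle and 154.0 to 295.0 with TCDD, and 8 of the 11 fell. The ranges of the endothelial marker sum overlapped, at 118.7 to 199.4 and 111.3 to 179.5 CPM. The 6 lymphocyte markers summed to at most 2.42 CPM in any library, with *Cd3e* and *Nkg7* at 0 in all 8, and the 5 neutrophil markers to at most 2.69 CPM, with *Ly6g* and *Retnlg* at 0. Cholangiocyte markers summed to 30.5 to 54.4 CPM with vehicle and 20.8 to 40.9 with TCDD, and erythroid markers to 83.6 to 165.8 and 59.3 to 101.4. The part of these cells in the results was not tested. In bulk RNA fewer cells of a type and less RNA per cell cannot be told apart. *Pkm*, whose response element the DRE-null label refers to, was at 75.9, 64.8, 52.9 and 39 CPM with vehicle and 35.6, 47.4, 56.5 and 26.5 CPM with TCDD. The groups overlapped and the log2 fold change was -0.49 (SE 0.25, adjusted p = 0.123). With CPM scaled over all libraries, *Pkm* at 8 h in libraries labelled DRE-null was 37.8 to 81.5 with vehicle and 109.2 to 169.0 with TCDD, higher in every TCDD library although this label is said to lack the element. The response differed between labels by -1.59 on the log2 scale (adjusted p = 0.292), and the groups are named by their labels throughout. Whether the genotype labels are right was not tested, and if they were exchanged every value given here under WT would belong to the other genotype.

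The promoters of 3 AHR targets that rose are shown first because they hold the core of the response element near the start of the gene. Each is the RefSeq window from 250 bases before to 50 bases after the annotated start, 300 bases on the strand of the gene, build GRCm38.p6, with capitals at GCGTG or at its reverse complement CACGC. They are *Cyp1a1* (chr9:57697363-57697662, plus strand, 1 match beginning 54 bases before the start), *Tiparp* (chr3:65528197-65528496, plus strand, 1 match beginning 170 bases before it) and *Ugdh* (chr5:65435793-65436092, minus strand, 3 matches, the farthest beginning 180 bases before it).
Cyp1a1: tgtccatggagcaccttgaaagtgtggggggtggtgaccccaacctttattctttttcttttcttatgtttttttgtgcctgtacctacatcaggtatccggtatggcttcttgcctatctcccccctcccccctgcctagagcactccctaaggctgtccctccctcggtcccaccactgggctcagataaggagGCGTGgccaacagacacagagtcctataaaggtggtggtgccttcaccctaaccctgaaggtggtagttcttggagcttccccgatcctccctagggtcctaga
Tiparp: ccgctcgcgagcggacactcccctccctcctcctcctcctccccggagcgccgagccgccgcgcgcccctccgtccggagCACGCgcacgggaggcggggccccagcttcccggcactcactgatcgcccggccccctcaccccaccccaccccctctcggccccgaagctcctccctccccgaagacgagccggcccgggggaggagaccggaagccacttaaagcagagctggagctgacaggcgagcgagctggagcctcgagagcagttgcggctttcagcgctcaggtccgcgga
Ugdh: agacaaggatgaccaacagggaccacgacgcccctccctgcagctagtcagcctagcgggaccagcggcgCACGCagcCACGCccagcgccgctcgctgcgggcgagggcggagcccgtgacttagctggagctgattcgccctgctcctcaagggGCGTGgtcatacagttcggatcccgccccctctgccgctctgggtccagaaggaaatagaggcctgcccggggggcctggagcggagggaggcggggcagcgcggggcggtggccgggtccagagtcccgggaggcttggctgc
GCGTG on either strand was present in 32.4% of all 32851 windows, in 51.6% of the windows of genes tested here, in 56% of those of induced genes and in 51.9% of those of repressed genes. A match of 5 letters is a description of the window and not a site. The windows of *Cyp1a2*, *Nqo1* and *Nfe2l2*, which also rose, held no match. Targets that were tested but did not pass the thresholds held matches too. There were 2 for *Selenbp1*, 2 in 1 window of *Htatip2* and 0 in its other window, and 1 for *Gsta1*.

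Differentially expressed genes (DEGs) were those that changed 1.5-fold or more with an adjusted p under 0.05 in the quasi-likelihood test of edgeR, the p-values being adjusted by the Benjamini-Hochberg procedure across the whole table. Adjusted p-values in the text are from this test unless another fit is named. Of 12392 genes tested, 4640 (37.4%) were DEGs, of which 2950 (23.8% of genes tested) were induced and 1690 (13.6%) were repressed, an induced share of 63.6%. The 2 groups did not overlap for 5140 genes (41.5%). With the trend of each library on GC content removed, 2503 genes were DEGs and 51.9% of them were induced, and in 1 fit of all libraries of the series 3615 were DEGs and 47.9% of them were induced. A list of genes is read below against 23.8% higher and 13.6% lower among all genes tested and a median log2 fold change of 0.00.

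Of the 16 AHR targets listed, 10 had enough counts to be tested, and 6 of those 10 rose and none fell. *Cyp1a1*, a monooxygenase that is the classical marker of AHR activity, was at 0.92, 3.40, 3.01 and 3.78 CPM in the vehicle libraries and at 1509, 1632.5, 1531 and 3748 CPM in the TCDD libraries. The groups were far apart and library 48 stood above the other 3 TCDD libraries. The log2 fold change was 9.55 (SE 0.50, adjusted p = 9.33e-07). *Tiparp*, an ADP-ribosyltransferase that represses the receptor, was at 9.11, 11.5, 9.11 and 7.84 CPM with vehicle and 39.8, 84.6, 109.9 and 63.5 CPM with TCDD. Its lowest TCDD value was in library 45, still above every vehicle value, and the log2 fold change was 2.99 (SE 0.28, adjusted p = 0.000365).

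*Cyp1a2*, the second hepatic enzyme of the family, was at 504.5, 528.9, 213.0 and 237.9 CPM with vehicle and 867.5, 961.5, 465.9 and 1364 CPM with TCDD. Vehicle libraries 9 and 10 lay above TCDD library 47, so the groups overlapped, and the log2 fold change was 1.30 (SE 0.34, adjusted p = 0.00868). *Ugdh*, which makes the UDP-glucuronic acid used in conjugation, was at 147.7 to 186.7 CPM with vehicle and 360.4 to 571.9 CPM with TCDD, a log2 fold change of 1.43 (SE 0.17, adjusted p = 0.000821). *Nfe2l2*, which encodes the antioxidant regulator NRF2, was at 43 to 61.7 CPM with vehicle and 108.6 to 149.0 CPM with TCDD, a log2 fold change of 1.39 (SE 0.16). The quinone reductase *Nqo1* was at 23.3 to 28.7 CPM with vehicle and 31.6 to 47.2 CPM with TCDD, a log2 fold change of 0.73 (SE 0.17).

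The other 4 targets tested did not pass both thresholds. *Xdh*, xanthine dehydrogenase, was at 172.2 to 177.5 CPM with vehicle and 196.9 to 317.5 CPM with TCDD, with no overlap, but its log2 fold change of 0.49 (adjusted p = 0.0179) is below the fold change threshold. *Htatip2* had a log2 fold change of 0.29 (adjusted p = 0.104) and *Selenbp1* of 0.15 (adjusted p = 0.53). The glutathione transferase *Gsta1* had -0.49 (adjusted p = 0.0477), also below the fold change threshold. The targets with too few counts for the test are given as counts per library. *Cyp1b1* had 0, 0, 0 and 6 pairs with vehicle and 0, 0, 29 and 99 with TCDD, so its higher values were in libraries 47 and 48 alone. *Ahrr*, the AHR repressor, had 3, 4, 0 and 0 pairs with vehicle and 2, 23, 21 and 37 with TCDD. *Lekr1* had 0 to 9 with vehicle and 4 to 23 with TCDD, *Serpinb2* had 0 to 8 and 1 to 3, and *Aldh3a1* had 4 pairs in library 12 and none in the others.

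**Figure D2:**
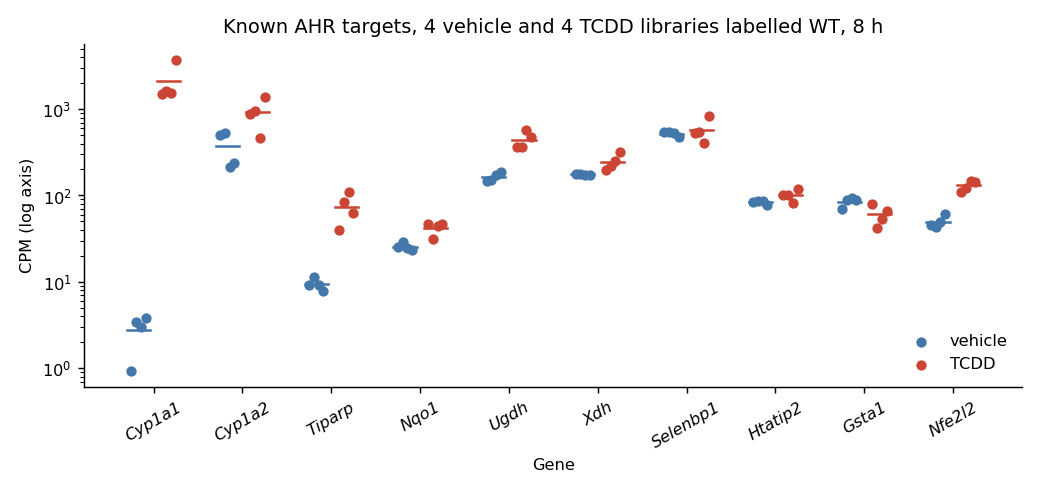
CPM on a log axis of the 10 AHR targets tested, in 4 vehicle (blue) and 4 TCDD (red) libraries labelled WT at 8 h, with short lines at the means. *Cyp1a1* went from a mean of 2.78 to 2105 CPM, *Tiparp*, *Ugdh*, *Nfe2l2*, *Nqo1* and *Xdh* had no overlap between groups, and *Cyp1a2*, *Selenbp1*, *Htatip2* and *Gsta1* overlapped.

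The receptor's own partners were mostly higher. Of 14 tested, 9 rose and 1 fell, with a median log2 fold change of 0.92. The chaperone *Hsp90aa1*, which holds the unbound receptor, was at 78.6, 101.8, 132.8 and 131.2 CPM with vehicle and 141.6, 437.3, 340.0 and 314.3 CPM with TCDD, a log2 fold change of 1.47 (SE 0.28, adjusted p = 0.0021), and its lowest TCDD value was in library 45. *Ptges3*, which encodes p23, had a log2 fold change of 1.21, the coactivator *Ncoa2* 1.26 and the corepressor *Ncor1* 1.4. With the no-feature share in a fit of all libraries, the median of the 14 was 0.20, or 0.34 without library 45, and none was called in either.

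Of the 31 listed targets of NRF2, 4 (12.9%) rose, 6 (19.4%) fell and 21 were not called. Among all genes tested 23.8% rose and 13.6% fell. *Gclc*, the catalytic subunit of the enzyme that limits glutathione synthesis, was at 632.0 to 774.5 CPM with vehicle and 1606 to 2936 CPM with TCDD, a log2 fold change of 1.53 (SE 0.20, adjusted p = 0.000952). The abundant *Gstp1* and *Gpx1*, a glutathione transferase and a glutathione peroxidase, fell by 0.66 and 0.84 on the log2 scale. *Gstp1* has near-identical copies in the genome, between which unique mapping can lose pairs, and its groups overlapped.

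Several lists of nuclear genes held more rises than falls. Of 70 chromatin and histone modification enzymes tested, 48 (68.6%) rose and 1 fell, with a median log2 fold change of 1.14. Its 4 most abundant members called were *Chd4* and *Ep400*, ATPases of chromatin remodelling, *Kmt2d*, a histone H3K4 methyltransferase, and *Trrap*, a scaffold of acetyltransferase complexes. *Kmt2d* was at 113.2, 98.1, 75.4 and 81.7 CPM with vehicle and 199.6, 192.3, 199.4 and 166.5 CPM with TCDD, and every TCDD library was above every vehicle library. The log2 fold changes of these 4 were 1.03 for *Chd4*, 0.93 for *Ep400*, 1.04 for *Kmt2d* and 0.74 for *Trrap*. Of 43 ubiquitin-specific peptidases, a list of protein turnover and not of nuclear genes, 25 rose and 2 fell, with a median of 1.14. Of 287 zinc finger proteins named Zfp 35.5% rose and 3 genes fell, with a median of 0.90.

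Of 74 splicing factors 33 (44.6%) rose and 8 fell, with a median log2 fold change of 0.37. *Srrm2*, a large scaffold of nuclear speckles, was at 97.3 to 107.6 CPM with vehicle and 205.1 to 306.0 CPM with TCDD (log2 fold change 1.29, SE 0.14). The RNA-binding proteins *Hnrnpu* and *Hnrnpk* had log2 fold changes of 1.38 and 0.91. Of 34 genes of the nuclear pore and export 19 (55.9%) rose and 1 fell, with a median of 0.61, among them the import receptors *Kpnb1* (1.08) and *Kpna2* (0.62). Of 52 genes of RNA polymerase II, Mediator and elongation 15 (28.8%) rose and 9 (17.3%) fell, with a median of -0.14, and of 9 replication-dependent histones tested none was called, with a median of -0.32.

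Of 22 long noncoding RNAs that stay largely in the nucleus or host small nucleolar RNAs, 7 rose and 1 fell. *Malat1*, an abundant RNA of nuclear speckles, was at 222.1, 179.0, 265.7 and 227.1 CPM with vehicle and 819.5, 872.4, 446.1 and 1112 CPM with TCDD, a log2 fold change of 1.86 (SE 0.24, adjusted p = 0.000931). *Neat1*, which builds paraspeckles, was at 60.6 to 109.8 CPM with vehicle and 174.0 to 294.7 CPM with TCDD (log2 fold change 1.36). *Tug1* (1.77), *Firre* (1.39), *Kcnq1ot1* (2.75), *Dleu2* (1.49) and *Ftx* (1.47) were the other 5 that rose, and *Snhg8* fell by 1.11. *Kcnq1ot1* lies antisense in *Kcnq1*, and the counts do not use strand, so pairs of the 2 cannot be told apart. *Snhg6*, *Gas5*, *Snhg17*, *Snhg12*, *Snhg15*, *Snhg1*, *Peg13*, *Pvt1*, *Jpx*, *Snhg5*, *Snhg20*, *Snhg11*, *Snhg14* and *Snhg18* were not called, with log2 fold changes from -1.43 for *Snhg18* to 1.42 for *Snhg11*.

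Ribosomal protein genes and nuclear genes of respiration held more falls than rises. Of 82 cytosolic ribosomal protein genes 60 (73.2%) fell and none rose, with a median log2 fold change of -0.73. *Rplp0*, of the ribosomal stalk, was at 1398, 1433, 1291 and 1259 CPM with vehicle and 950.2, 783.9, 696.3 and 782.3 CPM with TCDD, and it fell by 0.74 on the log2 scale (SE 0.14, adjusted p = 0.00188). *Rps2* fell by 0.75. Both genes have processed pseudogenes that can take up pairs. Of 77 mitochondrial ribosomal protein genes 39 fell and 2 rose, with a median of -0.59, led by *Mrpl17* (-0.73) and *Mrpl12* (-0.91) in abundance. Among further lists of protein synthesis, 17 of 44 genes of ribosome biogenesis rose and 6 fell (median 0.12), 7 of 20 tRNA synthetases rose and 3 fell (median -0.17), and 15 of 42 translation factors rose and 14 fell (median -0.42), so in the latter pair of lists the median was negative although rises outnumbered falls.

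Of 73 nuclear genes of oxidative phosphorylation 52 (71.2%) fell and 1 rose, with a median of -0.77. The ATP synthase subunit *Atp5g3* was at 517.7, 489.0, 380.0 and 339.5 CPM with vehicle and 308.9, 187.6, 160.9 and 173.0 CPM with TCDD, with no overlap and the highest TCDD value in library 45. It fell by 1.06 on the log2 scale (SE 0.21, adjusted p = 0.00248), or by 1.31 without library 45. *Atp5b* and *Atp5a1*, the beta and alpha subunits, fell by 0.65 and 0.59. Of the 11 messenger RNAs of the same complexes that mitochondria encode, 3 (27.3%, near the 23.8% of all genes) rose, none fell and 8 were not called, with a median of 0.29. *mt-Nd5* was at 2430 to 3144 CPM with vehicle and 3004, 5742, 5276 and 5138 CPM with TCDD, a log2 fold change of 0.77 (SE 0.20), and library 45 lay within the vehicle range. With the GC trend of each library removed, the log2 fold changes of the 3 that rose changed sign, to -0.38 for *mt-Nd5*, -0.45 for *mt-Co1* and -0.52 for *mt-Nd4*. Of 37 proteasome subunits 13 fell and 4 rose (median -0.50), with *Psmd8* and *Psmb4* the most abundant called, at -0.67 and -0.81.

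Secreted liver products held more falls than rises. Of 49 plasma protein genes 27 (55.1%) fell and 7 (14.3%) rose, with a median of -0.68. Among all genes tested 13.6% fell and 23.8% rose, so only the falls exceeded that share. *Hpx*, the heme scavenger hemopexin, was at 14063, 14586, 14121 and 13843 CPM with vehicle and 7111, 6654, 3109 and 8229 CPM with TCDD. Vehicle libraries were within a narrow range and library 47 was the lowest, and *Hpx* fell by 1.17 on the log2 scale (SE 0.25, adjusted p = 0.00302). Transferrin (*Trf*) fell by 0.72, *Serpina3k* by 0.67 and *Apoe* by 0.84. *Apoe* was at 23203 and 20732 CPM in vehicle libraries 9 and 10 but at 14355 and 13309 CPM in 11 and 12, a spacing within the vehicle group that *Ldha*, *Gapdh*, *Aldoa* and *Serpina3k* shared. *Serpina3k* and *Serpina3n* belong to a cluster of near-identical genes. The 7 plasma protein genes that rose included *Apob*, *F5*, *F9*, *F11*, *Cp* and *C8a*, named after their values were seen. The transcripts of the 7 were long and poor in GC, with a median total exon length of 7430 bases and 43.5% GC, against 1962 bases and 53.4% GC for the 27 that fell.

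The acute phase genes and liver transcription factors also held more falls than rises. Of 20 acute phase genes 7 (35%) fell and 4 (20%) rose, against 13.6% and 23.8% of all genes tested. Haptoglobin (*Hp*) was at 8088 to 8411 CPM with vehicle and 4357, 4472, 2021 and 5645 CPM with TCDD, and fell by 1.01 on the log2 scale (SE 0.25). *Serpina3n* fell by 0.65. Of 25 liver transcription factors 10 (40%) fell and 5 (20%) rose, with a median of -0.47. In both lists only the falls exceeded the share of all genes tested. *Cebpb*, a factor of the acute phase response, fell by 1.01, *Creb3l3*, a regulator of lipid genes, by 0.84, and *Rxra*, the partner of many nuclear receptors, by 0.70.

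In the lists of energy and lipid metabolism most members were not called. Of 21 glycolytic genes 7 fell and none rose, with a median of -0.53. *Gapdh* was at 5189, 5376, 3797 and 3868 CPM with vehicle and 3022, 3172, 2751 and 2469 CPM with TCDD, and fell by 0.68 on the log2 scale (SE 0.17, adjusted p = 0.0067). *Tpi1* fell by 0.77, *Ldha* by 0.72 and *Aldoa* by 0.60, the last with groups that overlapped. Of 10 genes of the pentose phosphate pathway 2 rose, *Rpe* (0.86) and *Prps2* (0.78), both below 20 CPM. With the GC trend of each library removed, these 2 values were -0.20 and -0.10. Of 25 genes of fatty acid oxidation and PPAR alpha 9 fell and 2 rose, with *Plin2*, which coats lipid droplets, at -0.63 and the thiolase *Acaa2* at -0.67. Of 24 genes of cholesterol synthesis 8 fell and 3 rose, and the reductase *Dhcr7* fell by 0.84.

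Of 29 heat shock genes and chaperones 10 rose and 4 fell. The most abundant called were *Hspb8*, a small heat shock protein, which fell by 0.69, *Hspa9*, the mitochondrial HSP70, which rose by 0.85, and *Cct7*, a subunit of the TRiC chaperonin, which fell by 0.61. Of 19 genes of the hypoxia response 7 rose and 2 fell, and the 2 most abundant members called, *Ldha* and the mitochondrial *Higd1a*, were those that fell. The 7 that rose, named after their values were seen, were *Ero1l*, *Vegfa*, *Bnip3l*, *Hif1a*, *Pdk1*, *P4ha1* and *Kdm3a*.

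Single libraries decided some of these calls. Of the 79 named genes called, 20 were not called when 1 library was left out, 16 of them without library 47. *Aldoa* (-0.53 to -0.46 on the log2 scale in those fits), *Atp5a1* (-0.54 to -0.51), *Cct7* (-0.57 to -0.53), *Gstp1* (-0.63 to -0.51) and *Serpina3k* (-0.64 to -0.52) were not called without library 9, 10, 47 or 48, and *Atp5b* (-0.56 to -0.55) without 9, 10 or 47. *Higd1a* (-0.78 to -0.53) and *mt-Nd4* (0.49 to 0.58) were not called without 9, 10, 46, 47 or 48, *mt-Co1* (0.46 to 0.59) without 11, 12, 47 or 48, and *Prps2* (0.57 to 0.85) without 9, 10, 11, 47 or 48. *Ftx* (1.21 to 1.42) was not called without 9, 10, 46 or 47, *Plin2* (-0.57 to -0.54) without 11, 12, 46 or 47, *Kpna2* (0.51 to 0.57) without 9 or 47 and *Serpina3n* (-0.58 to -0.53) without 10 or 47. The other 6 lost the call without 1 library each: *Trf* (-0.58) and *Rxra* (-0.56) without 47, *Dleu2* (1.23) and *Rpe* (0.66) without 48, *Psmd8* (-0.58) without 9 and *Snhg8* (-0.90) without 11.

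**Figure D3:**
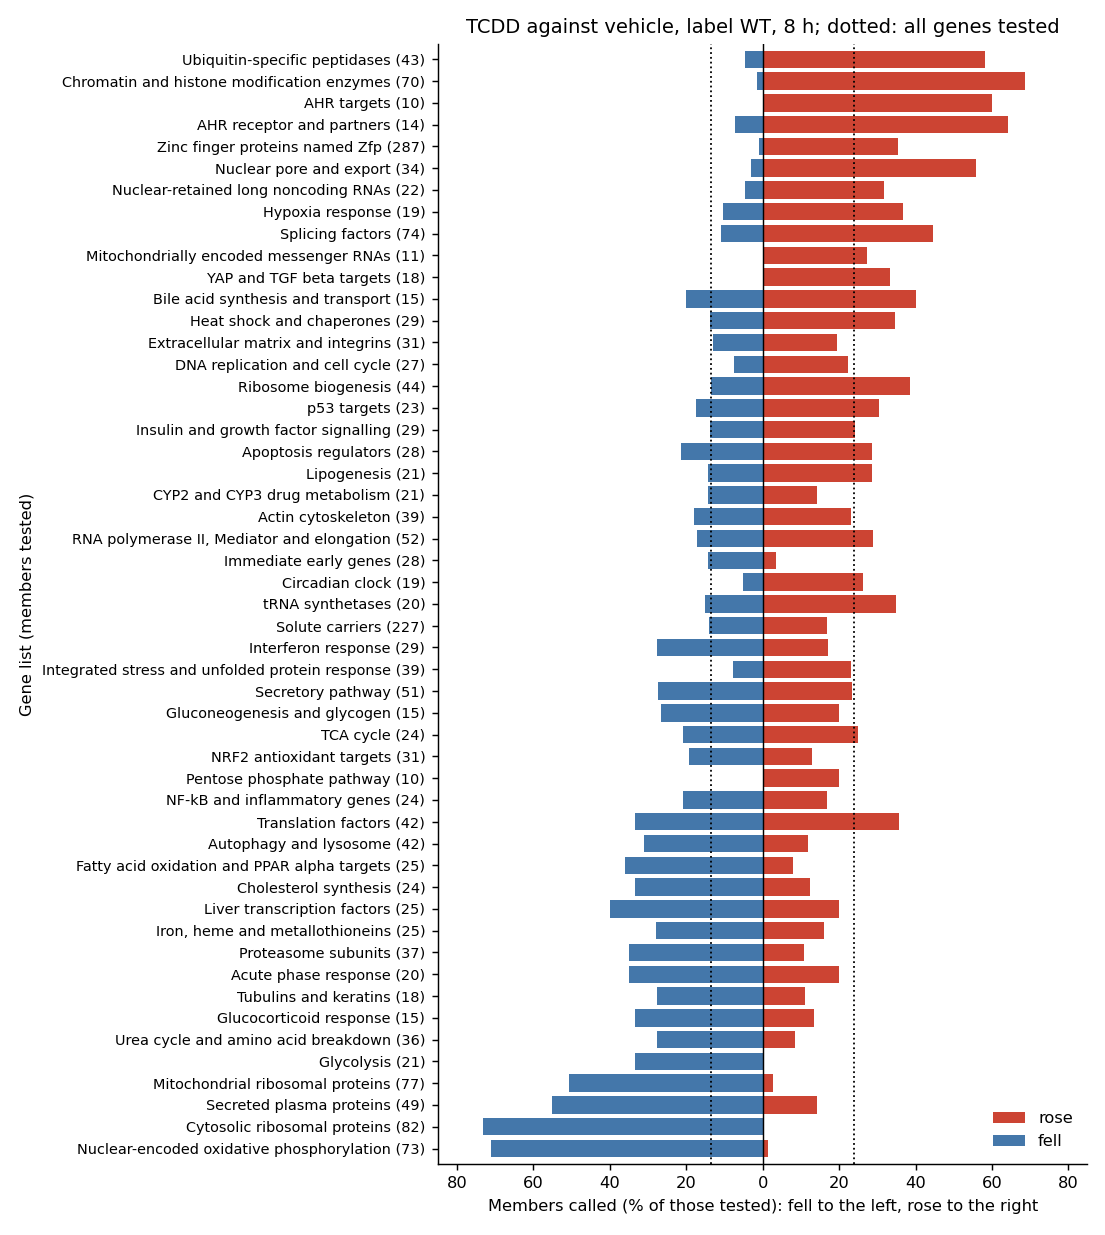
Percent of the tested members of each gene list that rose (red, to the right) or fell (blue, to the left) with TCDD in the 8 libraries, ordered by median log2 fold change, with the number tested in parentheses and dotted lines at 23.8% and 13.6% for all genes tested. Chromatin enzymes (68.6% rose) and ribosomal protein and nuclear respiratory genes (73.2% and 71.2% fell) lie farthest from the lines.

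By size of change among DEGs of at least 5 CPM whose groups did not overlap, the 8 largest rises were those of *Cyp1a1*, *Hmgb2*, *Tiparp*, *Kcnq1ot1*, *Hspa4l*, *Gas1*, *Amot* and *Reln*. *Reln*, an extracellular glycoprotein and in liver a marker of stellate cells, was at 12.5, 10.0, 9.30 and 9.19 CPM with vehicle and 37.2, 45.1, 78.2 and 50.6 CPM with TCDD, a log2 fold change of 2.37 (SE 0.23, adjusted p = 0.000395). The 9 stellate cell and fibroblast markers, of which *Reln* is 1, summed to 15.4 to 18.4 CPM with vehicle and 42.4 to 85.4 CPM with TCDD. *Reln* alone ran from 9.19 to 12.5 and from 37.2 to 78.2 CPM, so the sum largely repeats its rise. Of the 9 markers 3 were tested, of which *Reln* rose and *Colec11* fell. *Col1a1* had 0 to 22 pairs and *Lrat* 0 to 12 pairs per library. *Hmgb2*, a chromatin protein with processed pseudogenes, was at 2.03, 1.67, 0.95 and 0.40 CPM with vehicle and 9.24, 8.43, 18.8 and 4.81 CPM with TCDD (log2 fold change 3.05, SE 0.51). *Gas1*, a membrane coreceptor of hedgehog signalling, was at 0.59 to 2.26 CPM with vehicle and 8.12, 2.54, 20.7 and 4.66 CPM with TCDD, so its rise of 2.56 on the log2 scale was widest in library 47. *Hspa4l*, an HSP110 family chaperone, had 2.68 and *Amot*, an angiomotin, 2.55.

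The 8 largest falls were those of *Tff3*, *Plekhf1*, *S100a6*, *Tpbgl*, *Saa2*, *Rnf5*, *Marco* and *C1qtnf6*, from -1.71 to -1.44 on the log2 scale. *Saa2*, an acute phase apolipoprotein with the near-identical neighbour *Saa1*, was at 2344, 2028, 3705 and 2916 CPM with vehicle and 920.5, 615.7, 335.2 and 1696 CPM with TCDD, with no overlap. *S100a6*, a calcium-binding protein, was at 19, 20.3, 48.5 and 37.4 CPM with vehicle and 8.21, 10.5, 4.14 and 17.3 CPM with TCDD. *Marco*, a scavenger receptor of macrophages, was at 6.87 to 8.57 CPM with vehicle and 1.27 to 5.11 CPM with TCDD, and is one of the 8 Kupffer cell and macrophage markers that fell.

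To describe how far the changes follow the no-feature share, the slope of each gene on the share was taken from the libraries of the 34 groups outside the comparison, after each group's mean was removed, as the change in log2 CPM per percentage point. Neither the TCDD nor the vehicle libraries labelled WT at 8 h enter these slopes, while those labelled DRE-null at 8 h do. Across the 12392 genes the slope and the log2 fold change at 8 h had a Pearson r of 0.81 and a Spearman rho of 0.82, an r squared of 65.8%. The points share the 8 libraries on 1 axis and the other libraries on the other, and genes are not independent replicates. The slope had the same sign as the change for 4561 of 4640 DEGs (98.3%), that is for 98.4% of induced and 98.2% of repressed DEGs, where 48.6% of all genes tested had a positive slope. Among genes not called the sign was shared by 78.8%.

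Of 10 equal bins of genes by slope, the lowest had a median log2 fold change of -0.65, with 50.2% repressed and 0.565% induced. The highest bin had 1.39, with 75.6% induced and none repressed, and the medians climbed from bin to bin. The line through the origin that best fits the log2 fold changes to the slopes corresponds to 4.73 percentage points of share. The libraries differed by 7.07 points. With library 45 left out of the comparison, the line corresponds to 5.25 points and the libraries differed by 3.90. Slopes from the 68 vehicle libraries outside the comparison gave an r of 0.78 and slopes from the 72 libraries labelled DRE-null gave 0.81. Without library 45 in the comparison the r was 0.82.

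**Figure D4:**
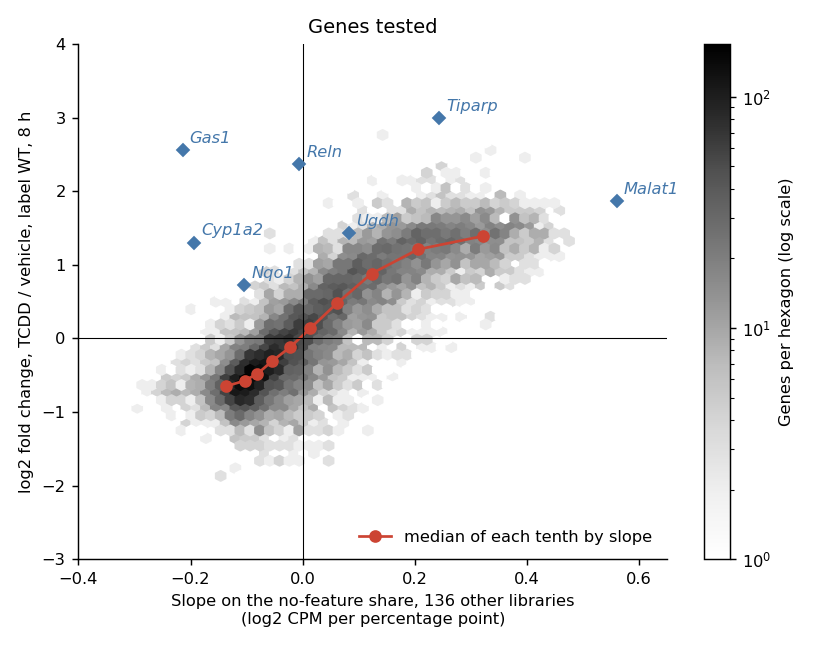
Log2 fold change with TCDD in the 8 libraries against the slope of log2 CPM on the no-feature share (per percentage point) in the libraries of the other 34 groups, as the number of genes per hexagon on a log scale of grey, with the median of each of 10 bins of genes by slope in red and 7 named genes in blue. The red line climbs from -0.65 to 1.39, and *Gas1*, *Cyp1a2*, *Nqo1* and *Reln* lie high at slopes at or below 0. *Cyp1a1*, at 9.55, is beyond the axis.

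The largest lists lay on the side of their slopes. The median slope was 0.20 for chromatin enzymes, 0.17 for the Zfp genes, -0.10 for cytosolic ribosomal proteins, -0.11 for nuclear genes of oxidative phosphorylation and -0.16 for plasma proteins. All 48 chromatin enzymes that rose had a positive slope, and all 60 ribosomal protein genes and all 52 nuclear respiratory genes that fell had a negative one. Inside the plasma protein list, 6 of the 7 genes that rose had a positive slope and all 27 that fell a negative one. *Malat1* had a slope of 0.56 and *Kcnq1ot1* of 0.57.

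The AHR targets did not keep to that order. Of the 6 that rose, 3 had negative slopes: *Cyp1a2* (-0.19), *Cyp1a1* (-0.12) and *Nqo1* (-0.10). *Tiparp* (0.24), *Nfe2l2* (0.16) and *Ugdh* (0.08) had positive slopes. This mixture was not particular to the AHR targets. Only 3 of 6 lipogenesis genes and 1 of 3 CYP2 and CYP3 genes that rose had a positive slope. All 3 genes that fell in each of these lists had a negative one. *Reln* had a slope of -0.01 and *Gas1* of -0.21, both against a rise, while *S100a6* had a slope of 0.07 against a fall. In all 79 DEGs, 48 induced and 31 repressed, changed against the sign of their slope.

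The same genes were then fitted in 1 model of all libraries with a mean for each group and the share as a covariate. TCDD against vehicle at 8 h under the WT label gave 6 DEGs of 17986 genes tested (0.0334%), all induced, and 1626 genes with an unadjusted p under 0.05. They were *Cyp1a1*, *Hmgb2*, *Nup210l*, *Cd72*, *Zfp939* and 4931440P22Rik, of which *Cd72* and *Zfp939* had too few counts to be tested in the 8 libraries. The log2 fold change of *Cyp1a1* in this fit was 10.07 (adjusted p = 0.000369) and that of *Hmgb2* 2.34 (adjusted p = 0.0348). *Nup210l*, related to a nuclear pore glycoprotein, had no pair in any vehicle library and 25, 12, 40 and 27 pairs with TCDD. Library 45 has a share beyond the range of all other libraries, and without it the same fit gave 25 DEGs of 18538 (0.135%), 40% of them induced. The 15 that fell then included *Cox5b*, *Ndufb4*, *Ndufa11* and *Atp5k* of the respiratory chain and *Rpl38* of the ribosome, with log2 fold changes among these 5 from -1.02 for *Ndufb4* to -1.77 for *Atp5k*.

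With the share as a covariate, *Tiparp* went from 2.99 to 2.11 (adjusted p = 0.331), *Nfe2l2* from 1.39 to 0.62 and *Ugdh* from 1.43 to 1.08, while *Cyp1a2* went from 1.30 to 2.33, *Nqo1* from 0.73 to 1.27 and *Selenbp1* from 0.15 to 1.15. *Reln* had 2.41 (adjusted p = 0.217), and none of these 7 genes was called. The median of the 10 AHR targets was 1.11, against 1.02 without the covariate, but members moved both ways, the median of their shifts was 0.51, and 1 of the 6 calls was left. The median of chromatin enzymes went from 1.14 to 0.19, of Zfp genes from 0.90 to 0.06, of cytosolic ribosomal proteins from -0.73 to -0.23 and of nuclear respiratory genes from -0.77 to -0.19. The plasma proteins went from -0.68 to 0.19 and glycolysis from -0.53 to 0.10, so both changed sign, while the median of all genes went from 0.00 to 0.05. Without library 45 the medians with the covariate were -0.11 for plasma proteins, -0.16 for glycolysis, -0.52 for cytosolic ribosomal proteins, -0.55 for nuclear respiratory genes, 0.33 for chromatin enzymes, 0.10 for Zfp genes and 0.97 for AHR targets. With the share added to a fit of the 8 libraries alone, 5009 genes were DEGs, and without library 45 there were 519. The effects of treatment and share cannot be told apart in these 8 libraries, and the part of the share in each change was not tested.

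**Figure D5:**
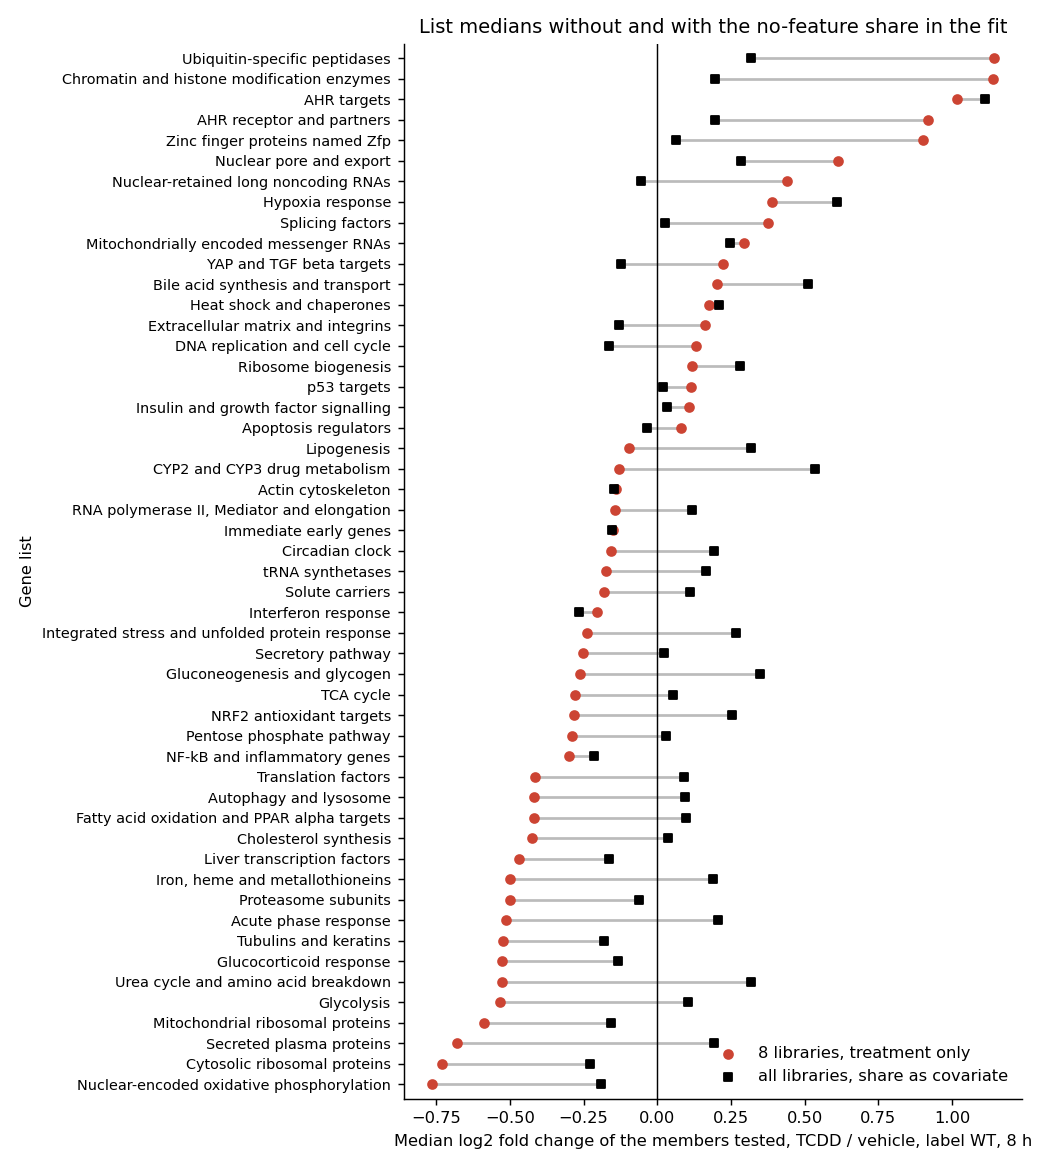
Median log2 fold change (TCDD over vehicle, label WT, 8 h) of each gene list in the fit of the 8 libraries (red circles) and in the fit of all libraries with the no-feature share as a covariate (black squares), joined by grey lines. The median of the AHR targets was 1.02 and 1.11, although their members moved both ways, chromatin enzymes went from 1.14 to 0.19, and plasma proteins crossed 0 from -0.68 to 0.19.

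Gene GC content and length moved with the response. Of 5 equal bins of genes by GC content, the lowest (median 41.4%) had a median log2 fold change of 1.07 with 57% of genes induced, and the highest (57.7%) had -0.50 with 30% repressed. By total exon length it went from -0.50 in the shortest bin (median 1577 bases) to 0.84 in the longest (9726 bases). Induced DEGs had a median exon length of 6722 bases and repressed DEGs 2548 bases. The median slope on the share in the other libraries went the same way, from 0.20 to -0.08 over the bins of GC content and from -0.08 to 0.12 over those of length. With the share as a covariate the medians over the bins of GC content ran from 0.21 to -0.12.

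The response was last set against that of libraries labelled DRE-null at 8 h and of libraries labelled WT at 4 h and 12 h, by the interaction of treatment with label or time. No gene was called in any of the 3 by the edgeR fit with the filter and without the covariate. That was 0.0% of 13333, of 13550 and of 13463 genes tested. At an unadjusted p under 0.05 there were 2114 (15.9%), 1241 (9.16%) and 1531 (11.4%) genes. The absence of calls therefore does not show that the responses were the same. DESeq2 called 3, 9 and 0 genes. In other edgeR fits the label interaction had 350 calls with low counts kept, and the 4 h interaction had 2, *Rpl38* and *Rps27*, with the share as a covariate. The 4 h interaction also had 1 call with low counts kept (*Reln*), 1 in a fit of all libraries (*Ifnlr1*) and 3 without library 45 (*Rpl38*, *Rps27* and *Rps28*). The CPM that follow are scaled over all libraries, so they differ from those given above for the same libraries. *Cyp1a1* at 8 h was at 1651 to 4144 CPM in libraries labelled WT and 3313 to 4195 CPM in those labelled DRE-null with TCDD. Its response differed between labels by -0.78 on the log2 scale (adjusted p = 0.404). At 4 h it was at 10.2 to 324.7 CPM and at 12 h at 2587 to 6191 CPM with TCDD under the WT label. *Reln* with TCDD under the WT label was at 17.2 to 20.2 CPM at 4 h, 40.7 to 86.6 at 8 h and 16.9 to 50.5 at 12 h, and its response at 8 h exceeded that at 4 h by 1.73 (adjusted p = 0.524, called by DESeq2 and without a filter on low counts). *Hmgb2* had 1.98 more at 8 h under the WT than under the DRE-null label (adjusted p = 0.292).

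The DEGs of this comparison were also followed through the other groups as the mean log2 CPM of the induced minus that of the repressed DEGs. The 8 libraries chose these genes, so their own values of -3.07 to -2.45 with vehicle and -1.34 to 0.00 with TCDD are a description. At 8 h under the DRE-null label the groups overlapped, with means of -2.31 ± 0.86 with vehicle and -1.75 ± 0.50 with TCDD (SD, n = 4 each). At 120 h the mean was -0.35 ± 0.30 in vehicle libraries labelled WT, above the mean of -0.69 ± 0.55 with TCDD at 8 h. Their mean share was 9.38%, and they also differed from the 8 h libraries in time in culture. The parts of share and time in this were not tested.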

How the data were processed

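RNA was measured in primary mouse hepatocytes by paired-end sequencing of unstranded TruSeq libraries. The deposited count of each gene is a whole number of uniquely mapped read pairs, which the authors made with Trimmomatic 0.39 and STAR 2.7 on GRCm39, with FastQC 0.11.3 and DESeq2 among the tools per the labels. The column that ignores strand was used, so overlapping and antisense genes, and near-identical copies, are uncertain. Each file lists 55359 gene identifiers, of which 52083 matched a symbol, and 4 summary lines that name no gene. These lines stayed out of library sizes and tests.

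Groups were taken from the labels. Genes were filtered with edgeR's filterByExpr (count minimum 10, total minimum 15), scaled by TMM and tested with the quasi-likelihood test of edgeR 4.0.16 in R 4.3.3, with Benjamini-Hochberg adjustment. Log2 CPM had a prior count of 2. The scripts were tested on simulated data. DESeq2 1.42.0, sva 3.50.0, other scalings, filters and covariates were tried as alternatives, and the fits with the share as a covariate but without library 45 were added after seeing the data. Marker lists and 53 gene lists served for counts and medians. The members and the lists were chosen with earlier results of these data known. Named genes were the AHR targets and *Pkm*, up to 4 of the most abundant called members of each list described, the 8 largest rises and 8 largest falls among DEGs of at least 5 CPM without overlap, DEGs also called with the share as a covariate, and the long noncoding RNAs tested. Intervals for single counts were not given, and depth limits genes of low count. Some genes that these rules name are not reported here.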

Additional observations from a re-analysis of the deposited data

Results flagged for a closer look

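In 214 groups of 4 libraries, each a measure of the libraries or the level of a named gene in 1 treatment, 7 had a library farther from the other 3 than Dixon's critical value for 4 samples allows, and chance gives about 1 in 20 groups. Library 45 accounted for 3 of the 7. Its 10 most abundant genes took 37.1% of its gene counts, against 17.7% to 20.2% in the other TCDD libraries. Genes not annotated as protein-coding took 24.2%, against 3.42% to 5.54%. *mt-Nd4* was at 3184.3 CPM in library 45, against 4116.2 to 4189.4 CPM. *Cyp1a1* was at 3748.2 CPM in TCDD library 48, against 1509.3 to 1632.5 CPM in the other TCDD libraries. *Rpe* was at 7.61 CPM in vehicle library 12, against 6.36 to 6.54 CPM. In vehicle library 11, *Gas5* was at 32.9 CPM, against 25.2 to 26.5 CPM, and *Ftx* at 1.29 CPM, against 0.63 to 0.73 CPM. The causes were not tested.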

How the results depend on the processing

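No paired analysis was possible because the labels give no number, animal or batch that would pair TCDD with vehicle libraries. The share of unmapped pairs was higher in replicates 1 and 2 than in 3 and 4 of both 8 h groups (13.4% and 13.5% against 9.2% and 9.0% with vehicle, 23.6% and 10.4% against 7.3% and 9.7% with TCDD), these numbers follow deposit order only, and whether they mark a shared batch was not tested. The count of 4640 DEGs and the induced share of 63.6% went to 60.8% induced under RLE scaling, 67.8% with low counts kept, 60.3% with the share as a covariate in the 8 libraries, 60.6% with DESeq2, 65.2% with 1 surrogate variable and 55.6% without a fold change threshold. DEGs numbered 2503 (51.9% induced) with the GC trend removed, 2429 (89.7%) at a fold change of at least 2, 3452 to 5113 (61% to 67.6%) without 1 library, and 3615 (47.9%) in all libraries, where the median of all genes shifted by -0.12. With the share as a covariate there were 6 (100.0%) in all libraries, 25 (40%) in all but library 45, and 519 (88.6%) in the 7 libraries without it. The interaction with the label gave 350 genes without a filter and 3 by DESeq2. The interaction with 4 h gave 2 with the share as a covariate, 1 without a filter, 9 by DESeq2, 1 in all libraries and 0 to 3 without 1 library. Slopes from vehicle libraries alone shared the sign of 97.2% of DEGs. Of 945 distinct list genes called, 1 was called with the share as a covariate in all libraries and 7 without library 45.

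Of 1764 alternative values of the 98 named genes, 1350 kept direction and call, 340 kept direction but lost the call, 16 gained it and 58 changed sign, 25 of these for genes called. The log2 values that changed sign follow, and the causes were not tested. With the GC trend removed they were *Pkm* 0.018, *mt-Co1* -0.45, *mt-Nd5* -0.38, *mt-Nd4* -0.52, *Rpe* -0.20, *Prps2* -0.097, *Gas5* -0.60, *Snhg17* 0.17, *Jpx* -0.20, *Snhg15* 0.26, *Pvt1* -0.24 and *Snhg1* -0.53. With the share as a covariate in all libraries they were *Hspb8* 0.26, *Ldha* 0.18, *Trf* 0.16, *Serpina3k* 0.31, *Hpx* 0.020, *Hp* 0.10, *Serpina3n* 0.50, *Gstp1* 0.18, *Gapdh* 0.12, *Tpi1* 0.15, *Aldoa* 0.22, *Rpe* -0.029, *Acaa2* 0.12, *Dhcr7* 0.014, *Rxra* 0.046, *Saa2* 0.11, *Snhg6* 0.15, *Gas5* -0.063, *Jpx* -0.23, *Snhg14* -0.57, *Pvt1* -0.65, *Snhg1* -0.0064 and *Malat1* -0.43. The same fit without library 45 gave *Serpina3n* 0.057, *Snhg6* 0.093, *Gas5* -0.12, *Jpx* -0.072, *Snhg14* -0.41, *Pvt1* -0.53, *Snhg1* -0.056 and *Malat1* -0.28. In the 8 libraries with the covariate they were *Snhg6* 0.024, *Gas5* -0.17 and *Snhg1* -0.079, and in 7 without library 45 *Cyp1a2* -0.28, *Selenbp1* -1.13, *Htatip2* -0.32, *Pkm* 0.45, *Gas5* -0.089, *Snhg15* 0.080 and *Snhg1* -0.097. With 1 library left out at a time, 4 genes not called had ranges on both sides of 0: *Selenbp1* -0.084 to 0.29, *Snhg17* -0.16 to 0.045, *Snhg15* -0.29 to 0.031 and *Pvt1* -0.057 to 0.42.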

Other observations

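Further lists held genes that rose and genes that fell, against 23.8% induced and 13.6% repressed among all genes tested. Of 15 genes of bile acid synthesis and transport tested, 6 (40%) rose and 3 (20%) fell, with a median log2 fold change of 0.20. The 6 that rose, named after their values were seen, were the canalicular exporters *Abcc2*, *Abcb11* and *Abcb4* and the uptake carriers *Slc10a1*, *Slco1a1* and *Slco1b2*. The 3 that fell were *Slc27a5*, *Cyp27a1* and the uptake carrier *Slco2b1*. Of the 6 that rose, 5 had a positive slope on the no-feature share, and all 3 that fell had a negative one. Of 24 genes of the tricarboxylic acid cycle, 6 (25%) rose and 5 (20.8%) fell. The 6 that rose, likewise named after their values were seen, were *Idh1*, *Suclg2*, *Pdha1*, *Dld*, *Sucla2* and *Idh3a*. The 5 that fell were *Mdh2*, *Idh2* and the succinate dehydrogenase subunits *Sdhb*, *Sdhc* and *Sdhd*. All 6 that rose had a positive slope and all 5 that fell a negative one. Of 39 genes of the integrated stress and unfolded protein response, 9 (23.1%) rose and 3 (7.69%) fell, with a median of -0.24. The rises were thus near the share of all genes tested. The endoplasmic reticulum chaperones *Hspa5*, *Hsp90b1*, *Canx* and *Pdia3* were among those that rose, and *Atf5*, *Herpud1* and *Ddit4* fell. All 9 that rose had a positive slope on the no-feature share, and all 3 that fell a negative one. In the fit of all libraries with the share as a covariate, no member of these lists was called.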
